A study of Mus musculus with 6 samples.

Results

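Rab GTPases were read in the macrophage-like RAW 264.7 cell line, as every probe of the array whose 1 gene symbol in the platform annotation is Rab followed by a number and at most 1 letter. The rule found 53 probes of 51 genes, of 33012 probes and 13840 named genes on the array. Rab5b and Rab11b had 2 probes each and every other Rab gene had 1. A gene was read at its probe with the highest mean log2 intensity, and both other probes are described too.

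RAW 264.7 is an established mouse line, and lipopolysaccharide (LPS) is a bacterial endotoxin that activates macrophages. 3 biological replicates were stimulated with 1 μg/mL LPS in the presence of 40 μM 15(S)-hydroxyeicosatetraenoic acid (15-HETE, a hydroxylated product of arachidonic acid), and 3 biological replicates received the same LPS alone. Total RNA was taken at 24 h, and each replicate pooled 6 wells. The labels name no vehicle for the cells given LPS alone, and unstimulated cells and 15-HETE without LPS were not analysed here.

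Rab proteins are small GTPases that give each membrane compartment its identity. In the GTP-bound form a Rab sits on a membrane through its prenyl groups and recruits effectors such as tethers, motors and lipid kinases. Exchange factors (GEFs) load GTP, GTPase-activating proteins (GAPs) promote its hydrolysis, and GDP dissociation inhibitor (GDI) takes the inactive protein off the membrane. In macrophages a phagosome matures by gaining and losing Rabs in order, with Rab5 proteins at the early stage and Rab7 at the late stage, while Rab11 proteins return membrane and receptors to the surface. An array measures the mRNA of these genes, not the nucleotide state or place of the protein, and in a bulk sample fewer cells and less RNA per cell cannot be told apart.

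The values are linear chemiluminescence intensities, quantile normalized to 1 distribution, with its median at 837, its lowest value at 46.2 and its highest at 3047298. Log2 values correlated across probes, which are not independent replicates, at 0.955 to 0.962 among 15-HETE + LPS samples, at 0.972 to 0.979 among LPS samples and at 0.943 to 0.962 between the groups (Pearson's r). All 7 macrophage markers measured (Adgre1, Cd14, Fcgr1, Itgam, Lyz2, Ptprc and Spi1) were above the array median. Their summed intensity was 3670000 to 3800000 in 15-HETE + LPS samples, against 2540000 to 3300000 in LPS samples. Of other markers, 4 of 5 for fibroblasts (summed intensity 12900 to 15200 with 15-HETE, against 21600 to 27000 with LPS alone), 1 of 5 for epithelial cells (2530 to 4640, against 4940 to 6010) and 1 of 4 for lymphocytes (2360 to 5310, against 2480 to 2790) were above the median. None of these markers passed the test, and their part in the Rab values was not tested. Sample records of the groups are numbered in separate blocks, and only the titles of 15-HETE + LPS samples carry an added code. Hybridization runs are not named in the labels, and a run that held 1 group only cannot be told apart from the treatment.

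By estimate, most Rab genes differed little between 15-HETE + LPS and LPS at 24 h, with little precision at dim probes. 15-HETE + LPS was compared with LPS at each probe on the log2 scale by limma, a linear model that steadies each probe's variance with that of the other probes. P-values were adjusted by Benjamini-Hochberg over all 33012 probes and called under 0.05. Of the 51 Rab genes 0 were called higher and 0 lower, where limma called 0.509% of all probes higher and 0.442% lower, and 0.759% and 0.368% of the 13840 named genes read at their brightest probe. Without adjustment, 8 Rab genes (15.7%) were higher and 3 (5.88%) lower at a p under 0.05, against 8.62% and 11.0% of all probes, and 10.7% and 10.6% of named genes. The log2 fold changes (15-HETE + LPS minus LPS) ran between -0.86 and 1.01 with a median of 0.12, against 0.01 for all probes and 0.02 for named genes. Changes under 0.5 in size made up 72.5% of Rab genes, 61.3% of all probes and 63.6% of named genes. The median standard error was 0.185 for Rab genes above the array median and 0.435 for those at or below it, where larger changes could be missed.

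The count of calls turned on how the variance was modelled. With the intensity trend, in which the variance shared across probes follows their mean intensity, 6 Rab genes were called higher (11.8%), namely Rab20, Rab29, Rab11a, Rab2b, Rab2a and Rab8a, and 3 lower (5.88%), namely Rab5b, Rab10 and Rab11b. The same fit called 3.87% of all probes higher and 4.96% lower, and 5.85% and 5.33% of named genes. The share of Rab genes called higher was thus above that of named genes and the share called lower was near it, and no test of this difference was made. Rab5b and Rab11b were higher at their other probes (log2 fold changes of 0.32 and 0.35, not called), so the count of lower calls rests on the probe read. The groups did not overlap, with all 3 samples of one above all 3 of the other, for 12 Rab genes that were higher with 15-HETE (23.5%) and 10 lower (19.6%). That share was 13.7% higher and 16.3% lower for all probes, and 17.5% and 17.7% for named genes. Among the 37 Rab genes above the array median, 6 (16.2%) were called higher with the trend and 3 (8.11%) lower, against 9.13% and 8.22% of named genes above the median. The 14 Rab genes at or below the median had calls in neither direction in either fit. They were Rab15, Rab17, Rab9b, Rab38, Rab39b, Rab27a, Rab27b, Rab6b, Rab44, Rab3b, Rab3c, Rab30, Rab37 and Rab40b. With each sample left out in turn, the trend fit called Rab20 and Rab8a 6 of 6 times, Rab29 5, Rab5b 4, Rab2b 3 and Rab11a 2 times, and Rab2a, Rab10 and Rab11b once each (1 of 6), without LPS replicate 1. Without LPS replicate 1 it called 10 Rab genes higher and 4 lower, and without any other single sample 3 to 4 higher and 0 to 1 lower.

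**Figure D1:**
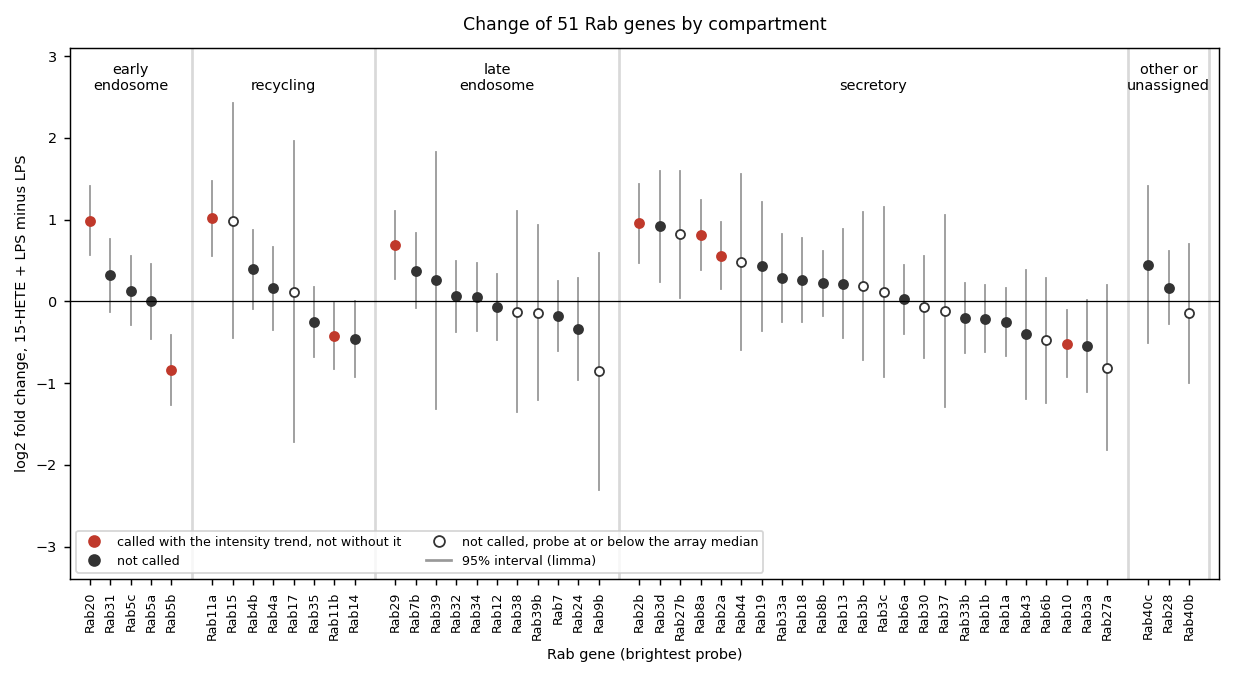
Log2 fold change of every Rab gene (15-HETE + LPS minus LPS, vertical axis) at its brightest probe, with genes along the horizontal axis grouped by compartment and lines for the 95% confidence interval of limma. Filled red points are the 9 genes called with the intensity trend, filled black points are genes not called, and open points are genes at or below the array median, whose intervals are mostly the widest.

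The 250 bases before the start of transcription are shown for 5 genes on which the results turn. Rab20 and Rab8a were called with the trend whichever sample was left out. Rab11a and Rab11b are close paralogues with shifts of opposite sign at their brightest probes. Rab5b and Rab11b each have 2 probes that differ in sign, and at its other probe Rab11b was higher with 15-HETE, as Rab11a was. The sequences are from RefSeq (GRCm38.p6), each on the strand of its gene, at chr8:11478641-11478890 (minus strand) for Rab20, chr8:72160950-72161199 (plus strand) for Rab8a, chr9:64737757-64738006 (minus strand) for Rab11a, chr17:33760487-33760736 (minus strand) for Rab11b and chr10:128696269-128696518 (minus strand) for Rab5b. Capitals mark matches on either strand to 4 motifs, which are the GC box GGGCGG, the CCAAT box, the E-box CACGTG and the nuclear receptor half-site AGGTCA.
Rab20: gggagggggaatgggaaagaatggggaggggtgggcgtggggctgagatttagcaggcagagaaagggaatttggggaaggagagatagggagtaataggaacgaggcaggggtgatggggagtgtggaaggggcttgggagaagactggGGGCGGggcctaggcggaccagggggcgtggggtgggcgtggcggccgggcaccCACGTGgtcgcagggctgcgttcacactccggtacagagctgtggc
Rab8a: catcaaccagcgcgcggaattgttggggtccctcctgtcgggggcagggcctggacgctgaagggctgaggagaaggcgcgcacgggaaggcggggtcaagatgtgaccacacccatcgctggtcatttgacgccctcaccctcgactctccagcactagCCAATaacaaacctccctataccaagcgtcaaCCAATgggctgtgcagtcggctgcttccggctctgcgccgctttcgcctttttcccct
Rab11a: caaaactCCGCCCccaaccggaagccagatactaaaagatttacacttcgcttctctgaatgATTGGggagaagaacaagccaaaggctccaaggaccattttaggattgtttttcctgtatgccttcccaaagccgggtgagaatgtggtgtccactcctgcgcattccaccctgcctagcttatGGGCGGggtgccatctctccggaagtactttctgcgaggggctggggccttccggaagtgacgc
Rab11b: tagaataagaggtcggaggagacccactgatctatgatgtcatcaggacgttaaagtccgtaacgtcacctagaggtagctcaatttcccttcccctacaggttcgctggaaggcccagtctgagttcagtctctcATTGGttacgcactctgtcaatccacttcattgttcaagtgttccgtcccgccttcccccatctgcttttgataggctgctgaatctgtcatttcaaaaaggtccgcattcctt
Rab5b: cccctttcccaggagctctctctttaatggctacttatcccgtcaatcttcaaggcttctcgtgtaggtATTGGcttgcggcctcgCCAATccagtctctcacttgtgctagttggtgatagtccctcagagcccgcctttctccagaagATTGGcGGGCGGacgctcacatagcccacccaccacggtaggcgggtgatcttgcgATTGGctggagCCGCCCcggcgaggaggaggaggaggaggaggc
The Rab20 window held 1 GC box and 1 E-box, and that of Rab8a held 2 CCAAT boxes. Rab11a had 2 GC boxes and 1 CCAAT box, and Rab11b had 1 CCAAT box with no GC box in these bases. Motifs were not tested against the changes. Rab5b had 2 GC boxes and 4 CCAAT boxes. RefSeq windows matched 42 of the 51 Rab genes, some with several windows, and a GC box stood in at least 1 window of 32 genes (76.2%), against 32.7% of all 32851 windows. A CCAAT box was found for 23 genes (54.8%, against 33.8% of windows). The E-box was found for Rab20, Rab27a and Rab5a (7.14%, against 6.02% of windows) and the half-site for Rab31, Rab32 and Rab43 (7.14%, against 14.0% of windows). A gene with several windows has more chances of a match than a single window, and a match is a run of letters, not a measured site.

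The early endosome genes held the Rab with the lowest p of the family. Rab20, a Rab of endosomes and of maturing phagosomes, had intensities of 42716, 42893 and 43724 in 15-HETE + LPS samples, against 19697, 24254 and 21589.5 in LPS samples. Every 15-HETE value was well above every LPS value, and the 15-HETE replicates lay close together. The means were 43111 ± 538 with 15-HETE, against 21847 ± 2289.6 with LPS alone (SD, n = 3 each), a 1.98-fold difference (log2 fold change 0.99, 95% interval 0.56 to 1.41, adjusted p = 0.063 by limma and 0.00184 with the trend). Rab20 and Rab11a were named by the study on these same samples, so their values are no independent evidence. With log2(intensity + 100) in place of log2(intensity), Rab20 was the 1 Rab gene called (adjusted p = 0.0436 by limma).

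Rab5b, one of the 3 Rab5 proteins that drive fusion of early endosomes, had 4169, 4077 and 3520.2 in 15-HETE + LPS samples, against 7273, 6422 and 7303 in LPS samples at its brighter probe. The groups did not overlap there, and 15-HETE was lower (3922 ± 351 with 15-HETE, against 6999.5 ± 500.3 with LPS alone, log2 fold change -0.84, 95% interval -1.27 to -0.41, adjusted p = 0.0835, 0.0125 with the trend). The other Rab5b probe ran the other way, with 3628, 4971 and 3891 in 15-HETE + LPS samples, against 3545, 3067 and 3294 in LPS samples. Its log2 fold change was 0.32 (95% interval -0.16 to 0.81, adjusted p = 0.423 by limma). The shifts of the 2 probes differed by -1.16, brighter minus other probe (exact permutation p = 0.1, two-sided, the smallest that 3 against 3 allows). Which transcripts each probe reads was not tested, and no direction is given here for Rab5b as a gene.

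Rab31, which acts between the trans-Golgi and endosomes and is found on phagosomes, had 193129, 170671 and 162631 in 15-HETE + LPS samples, against 158596, 134587 and 129382 in LPS samples. The lowest 15-HETE value stood just above the highest LPS value, and the log2 fold change was 0.32 (adjusted p = 0.396, 0.19 with the trend). Rab5c had a log2 fold change of 0.13 (95% interval -0.29 to 0.55) and Rab5a one of 0.00 (-0.46 to 0.46), both with overlapping groups. The median log2 fold change of the 5 early endosome genes measured was 0.13 (SD 0.10 over the 3 treated samples, each set against the LPS mean, as for the medians that follow).

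**Figure D2:**
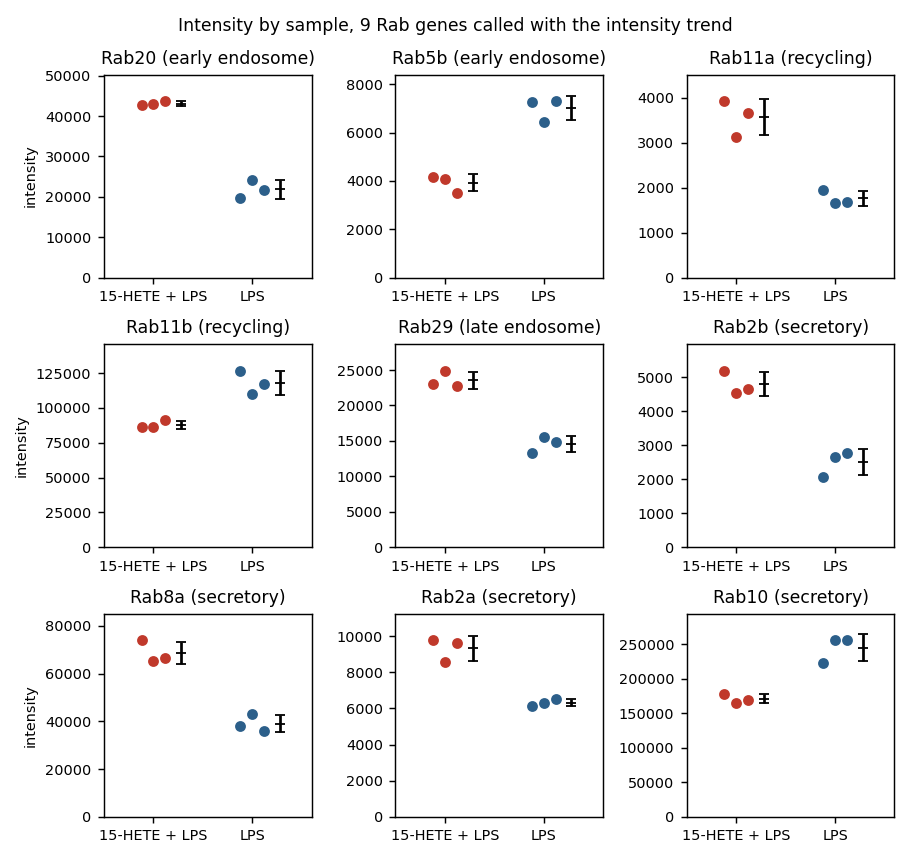
Linear intensity (vertical axis from 0) in each of the 3 15-HETE + LPS samples (red, left in each panel) and the 3 LPS samples (blue, right) for the 9 Rab genes called with the intensity trend, with bars for the mean ± SD. Rab20, Rab11a, Rab29, Rab2b, Rab8a and Rab2a have all 3 15-HETE values above the LPS values, and Rab5b, Rab11b and Rab10, read at their brightest probes, have them below.

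Among recycling genes Rab11a and Rab11b had log2 fold changes of opposite sign at their brightest probes. Rab11a, which returns receptors and membrane from the recycling endosome to the cell surface, had 3931, 3141 and 3661 in 15-HETE + LPS samples, against 1956, 1657 and 1693 in LPS samples. Each 15-HETE value exceeded every LPS value by more than the spread within either group. The means were 3577 ± 402 with 15-HETE, against 1769 ± 163 with LPS alone (SD, n = 3 each), with a log2 fold change of 1.01, the highest among the Rab genes (95% interval 0.56 to 1.47, adjusted p = 0.0675 by limma, 0.0189 with the trend). When the methods' t-test was adjusted only over the 5676 probes past 1.8-fold in at least 2 treated samples, Rab11a was the 1 Rab gene under an adjusted p of 0.05 (adjusted p = 0.0370 by that test across those probes), and 0 Rab genes were under the methods' own threshold of 0.025. The study listed Rab11a and Rab20 as higher by that threshold and fold. It had first filtered probes by signal-to-noise and flag. Those filters were not applied here, so the adjustments cover unlike sets of probes.

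Rab11b, its close relative, had 86139.8, 86013 and 91194 in 15-HETE + LPS samples, against 126747, 110113 and 116938 in LPS samples at the brighter probe. The groups stood apart, with 15-HETE lower (log2 fold change -0.42, 95% interval -0.83 to -0.02, adjusted p = 0.239, 0.0482 with the trend). The other Rab11b probe again ran the other way, with 115750, 108696 and 110746 in 15-HETE + LPS samples, against 94943, 83789 and 84217 in LPS samples, also without overlap. There the log2 fold change was 0.35 (95% interval -0.05 to 0.76, adjusted p = 0.309), and the shifts of the 2 probes differed by -0.78 (exact permutation p = 0.1, two-sided). A direction for Rab11b therefore rests on the probe.

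**Figure D3:**
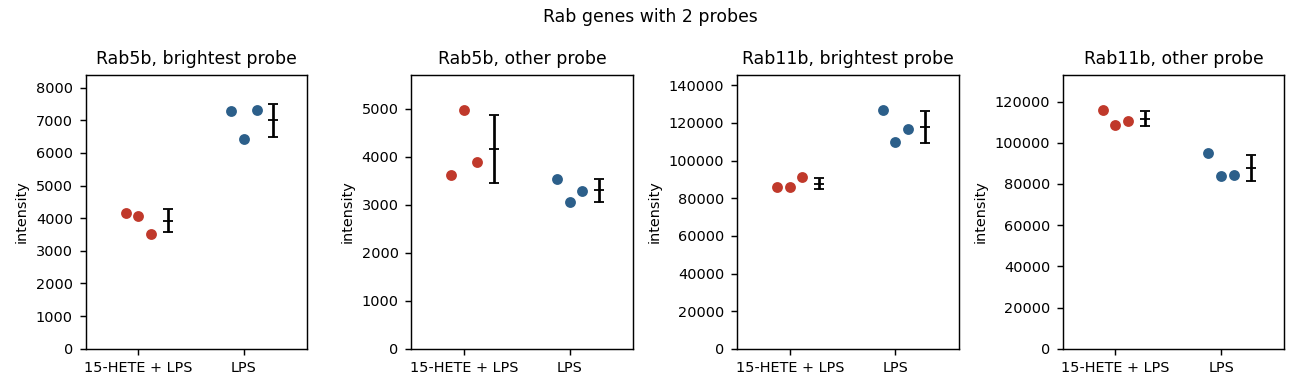
Linear intensity by sample (vertical axis from 0) at both probes of Rab5b and both probes of Rab11b, with the 3 15-HETE + LPS samples (red) left of the 3 LPS samples (blue) and bars for the mean ± SD. At the brighter probe of each gene the 15-HETE samples lie below the LPS samples, and at the other probe they lie above them.

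Rab14, which acts between the Golgi and early or recycling endosomes, had 104463, 114626 and 106096 in 15-HETE + LPS samples, against 125339, 161964 and 164156 in LPS samples. All 15-HETE values were the lower ones, LPS replicate 1 was nearest to them, and the difference missed the threshold (log2 fold change -0.46, adjusted p = 0.256, 0.0703 with the trend). Rab4b, of the fast recycling route, had a log2 fold change of 0.39 with no overlap, and Rab4a one of 0.16 with overlap. Rab35, also of fast recycling, had a log2 fold change of -0.25 with no overlap. Rab15 was dim, and its log2 fold change of 0.99 rested on 15-HETE replicate 1, with values of 1247, 291 and 333 in 15-HETE + LPS samples, against 234, 344 and 193 in LPS samples. Without that sample it was 0.32. Rab17, known from polarized epithelial cells, was dim too, with a log2 fold change of 0.12. The recycling median over 8 genes was 0.14 (SD 0.19).

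Late endosome genes spread to either side of 0, with Rab29 farthest above it among those over the array median. Rab29, a Rab of the Golgi and of stressed lysosomes, had 22964, 24923 and 22693 in 15-HETE + LPS samples, against 13332, 15609.9 and 14857 in LPS samples. No value of one group reached the other, and the means were 23527 ± 1217 with 15-HETE, against 14599.8 ± 1160.4 with LPS alone (SD, n = 3 each). The log2 fold change was 0.69 (95% interval 0.27 to 1.11, adjusted p = 0.11 by limma and 0.0088 with the trend). Rab7b, which carries cargo between late endosomes and the trans-Golgi, had 6056, 6043 and 5250 in 15-HETE + LPS samples, against 5079, 3967 and 4373 in LPS samples. Its groups stood narrowly apart, and the log2 fold change of 0.38 missed the threshold in both fits (adjusted p = 0.332, 0.221 with the trend). Rab7, the main Rab of late endosomes and lysosomes, had a log2 fold change of -0.18 (95% interval -0.61 to 0.24), with every 15-HETE value below the LPS values.

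Rab9b, a dim relative of the Rab that sorts from late endosomes to the Golgi, had 216, 61.3 and 227 in 15-HETE + LPS samples, against 228, 183 and 428 in LPS samples. Its log2 fold change of -0.86 was the lowest of the family, but the groups overlapped and the interval was wide (-2.31 to 0.59). Without 15-HETE replicate 2, the sample at 61.3, it was -0.24. Rab24, linked to autophagy, had a log2 fold change of -0.34, and Rab39, found on late endosomes and phagosomes, had 0.26, both with overlap. Rab32 and Rab38, which serve lysosome-related organelles, had log2 fold changes of 0.06 and -0.13. For Rab34, of the Golgi and phagosomes, the log2 fold change was 0.05, for Rab12, of traffic toward lysosomes, it was -0.07, and for Rab39b it was -0.14, in each case with overlap. The median over the 11 late endosome genes was -0.07 (SD 0.11).

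Of the 24 secretory genes measured, 4 were called with the trend, of which 3 were higher (12.5%) and 1 lower (4.17%). Those shares were 5.85% and 5.33% for named genes, and the difference was not tested. Rab8a, which brings vesicles from the trans-Golgi and recycling endosome to the surface, had 74045, 65340.4 and 66372 in 15-HETE + LPS samples, against 37984, 42982 and 36075 in LPS samples. The samples fell into separate ranges, with means of 68586 ± 4756 with 15-HETE, against 39014 ± 3567 with LPS alone (SD, n = 3 each). Its log2 fold change was 0.82 (95% interval 0.39 to 1.24, adjusted p = 0.0867 by limma and 0.00429 with the trend). Rab2b, a Rab of the Golgi and early secretory route, had 5199, 4553 and 4669 in 15-HETE + LPS samples, against 2062, 2663 and 2772 in LPS samples. Here as well the lowest 15-HETE value lay far above the highest LPS value (4807 ± 344 with 15-HETE, against 2499 ± 383 with LPS alone, log2 fold change 0.95, 95% interval 0.47 to 1.43, adjusted p = 0.0805, 0.0172 with the trend).

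Rab2a, its paralogue, had 9783, 8548 and 9646 in 15-HETE + LPS samples, against 6157, 6283 and 6529 in LPS samples. The difference ran the same way as for Rab2b with a smaller size (log2 fold change 0.56, adjusted p = 0.15, 0.0346 with the trend). Rab10, which acts in Golgi-to-surface and endosomal traffic, had 177668, 165297 and 168859 in 15-HETE + LPS samples, against 222174, 255715 and 255715 in LPS samples. Its 15-HETE values were all lower, and LPS replicates 2 and 3 held the same quantile-normalized value (log2 fold change -0.52, 95% interval -0.93 to -0.10, adjusted p = 0.174, 0.0318 with the trend). Rab3d, of regulated secretion, had 5058, 3097 and 4113 in 15-HETE + LPS samples, against 2743, 2033 and 1709 in LPS samples. The groups did not overlap but both spread widely, and the log2 fold change of 0.92 was not called (adjusted p = 0.152, 0.0597 with the trend).

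Rab3a, the synaptic vesicle Rab, had 15744, 20019 and 25505 in 15-HETE + LPS samples, against 29279, 31487 and 27187 in LPS samples. The 15-HETE replicates ranged more widely than those of LPS, all below them (log2 fold change -0.55, adjusted p = 0.264). By log2 fold change, also lower with 15-HETE and without overlap were the endoplasmic reticulum to Golgi Rabs Rab1a (-0.26) and Rab1b (-0.21) and the Golgi and autophagy Rab Rab33b (-0.20). Without overlap and higher were Rab8b (0.22) and the dim Rab27b (0.82). Rab27a, which docks secretory lysosomes, was dim and its groups overlapped (-0.81). The remaining 12 secretory genes overlapped, with log2 fold changes of -0.48 for Rab6b, -0.40 for Rab43, -0.11 for Rab37, -0.07 for Rab30, 0.03 for Rab6a, 0.12 for Rab3c, 0.19 for Rab3b, 0.22 for Rab13, 0.26 for Rab18, 0.29 for Rab33a, 0.43 for Rab19 and 0.48 for Rab44. The secretory median was 0.15 (SD 0.02). This SD leaves out the spread of the LPS samples, and with a sample left out the median ran between 0.0722 and 0.221. Outside the compartments, the log2 fold changes were 0.17 for Rab28, -0.15 for Rab40b and 0.45 for Rab40c, all with overlap and with a median of 0.17 (SD 0.06). The 5 medians thus ran between -0.07 and 0.17.

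Paralogues were then compared within each sample, as the log2 ratio of their intensities. Of 20 pairs within 13 families, this ratio did not overlap between the groups in 9, all at the smallest exact permutation p of 0.1 (two-sided, 0.222 after Benjamini-Hochberg adjustment over the 20 pairs). The design of 3 against 3 cannot go lower. Both members were above the array median in 11 pairs, of which 8 were at that p. Of single named genes above the array median, 24% were higher and 23.8% lower without overlap. Ratios of other gene pairs were not computed, so these counts are not read as a trait of paralogues. The log2 fold change of Rab11a minus that of Rab11b was 1.44, from opposite signs (1.01 and -0.42). It was 0.66 when the other Rab11b probe was read. For Rab3a minus Rab3d the difference was -1.47, also from opposite signs (-0.55 and 0.92). For Rab8a minus Rab8b the difference was 0.59, for Rab7 minus Rab7b -0.56, for Rab2a minus Rab2b -0.40 and for Rab4a minus Rab4b -0.23. Rab5a minus Rab5b was 0.84 at the brighter Rab5b probe but -0.32 at the other. Rab5b minus Rab5c was -0.97 at the brighter probe. In the reverse order, Rab5c minus Rab5b was -0.19 (p = 0.5 by exact permutation) at the other probe. The direction of this pair thus also differed between the Rab5b probes. In the other 3 pairs the ratios overlapped, with -0.04 for Rab1a minus Rab1b (exact p = 0.6), -0.13 for Rab5a minus Rab5c (p = 0.5) and 0.49 for Rab33a minus Rab33b (p = 0.2), all by exact permutation. Probe sequences were not used here, so signal shared between near-identical paralogues was not tested.

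**Figure D4:**
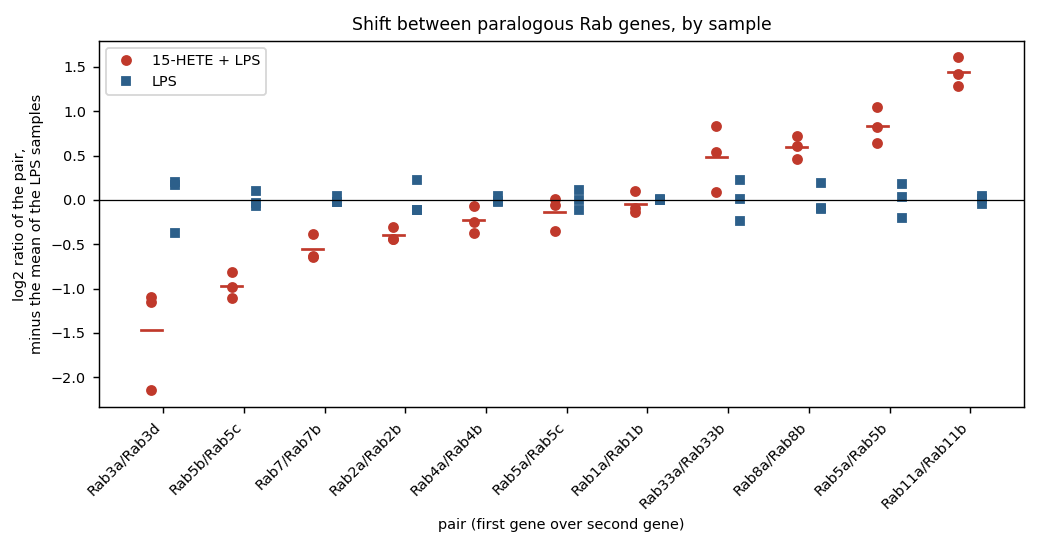
Log2 ratio of the first gene over the second for the 11 paralogue pairs with both members above the array median, minus the mean ratio of the LPS samples (vertical axis), for the 3 15-HETE + LPS samples (red circles, with a line at their mean) and the 3 LPS samples (blue squares). The means lie between -1.47 for Rab3a over Rab3d and 1.44 for Rab11a over Rab11b, and the ratios overlap only for the pairs of Rab5a and Rab5c, Rab1a and Rab1b, and Rab33a and Rab33b.

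The genes that act on Rabs were read the same way. Of 8 escort, prenylation and GDI genes listed 5 were measured, with 0 called. All 5 log2 fold changes were below 0 (median -0.27), as were 48.4% of those of named genes. Lowest in p were Chm (Rab escort protein, 13596, 12586 and 12376 in 15-HETE + LPS samples, against 24254, 16743 and 16116 in LPS samples, log2 fold change -0.54, adjusted p = 0.252) and Rabggtb (a subunit of the Rab prenylating enzyme, 155031, 170892 and 167375 in 15-HETE + LPS samples, against 203370, 188470 and 204575 in LPS samples, -0.27, adjusted p = 0.415). Neither gene had overlapping groups. Of 29 exchange factors listed 18 were measured, again with 0 called, 13 of them below 0 and a median of -0.35. With the trend 1 was called higher (5.56%), Ccz1, and 3 lower (16.7%), Rin3, Rgp1 and Dennd2c, against 5.85% and 5.33% of named genes. Of the exchange factors 72.2% had log2 fold changes below 0, against 48.4% of named genes. Their groups did not overlap for 16.7% higher and 50% lower, against 17.5% and 17.7% of named genes. All 18 were above the array median, where groups separate more often. Of named genes above it, 24% were higher and 23.8% lower without overlap, and the trend called 9.13% higher and 8.22% lower. These differences in share were not tested.

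Rin1, an exchange factor of Rab5 proteins, had 1121, 1114 and 1316 in 15-HETE + LPS samples, against 2274, 2043 and 2385 in LPS samples. It was lower in all 3 treated samples but not called in either fit (log2 fold change -0.92, adjusted p = 0.0731, 0.0552 with the trend). Rin3, of the same family, had 291, 1303 and 1296 in 15-HETE + LPS samples, against 6450.3, 4226 and 3869.8 in LPS samples, with 15-HETE replicate 1 far below the other treated samples (log2 fold change -2.58, standard error 0.63, adjusted p = 0.105, 0.0183 with the trend). Of 35 GAPs listed 26 were measured with 0 called and a median of -0.17. The trend called 1 higher (3.85%) and 2 lower (7.69%), against 5.85% and 5.33% of named genes. Tbc1d8 had 2291, 2072 and 2437 in 15-HETE + LPS samples, against 854, 406 and 796 in LPS samples and was higher in every treated sample (3.47-fold, adjusted p = 0.0637, 0.0162 with the trend), and Sgsm2 had 7528, 6868 and 7229 in 15-HETE + LPS samples, against 11029, 12207 and 11172 in LPS samples and was lower in each (log2 fold change -0.67, adjusted p = 0.11, 0.0137 with the trend).

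With limma's default prior, the calls among genes that act on or with Rabs were effectors or tethers. Of 54 listed, 40 were measured, 3 rose (7.5%) and 0 fell by limma, against 0.759% and 0.368% of named genes, with a median log2 fold change of 0.02. Above the array median stood 32 of the 40, and limma called 1.16% of named genes above it higher and 0.442% lower. The list was drawn up with earlier results of these data known, so its share of calls is no independent evidence, and the difference was not tested. Inpp5b, a phosphoinositide 5-phosphatase that binds Rabs, had 4714, 4994 and 5005 in 15-HETE + LPS samples, against 1528, 1019 and 868 in LPS samples. The groups were far apart (log2 fold change 2.15, standard error 0.25, adjusted p = 0.0368). Exoc2, a subunit of the exocyst, which tethers secretory vesicles at the surface, had 3129.7, 3389.9 and 3073 in 15-HETE + LPS samples, against 1317, 916 and 992 in LPS samples (log2 fold change 1.59, adjusted p = 0.0429). Rbsn, the Rab4 and Rab5 effector rabenosyn, had 2170.1, 2769.9 and 2489 in 15-HETE + LPS samples, against 893, 708 and 982 in LPS samples (log2 fold change 1.53, adjusted p = 0.0476). Again no treated value reached the LPS range. Exoc2, Rbsn and Rin1 were named by the study on these samples. All 3 calls were lost when any 1 sample was left out, since limma then called 0 probes of the array, and in the methods' t-test over all probes, which also called 0. The trend called 5 effectors higher (12.5%) and 2 lower (5%), against 5.85% and 5.33% of named genes.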

How the data were processed

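The authors deposited linear intensities, read by chemiluminescence and then quantile normalized, as the methods state. Signal-to-noise and flag filters named there are not applied in the table, and background correction is not given in the sources used here. The deposited intensity was turned to log2 with no filter and no pseudocount. Probes were named by the platform annotation (1 symbol for 14411 probes, several for 247, none for 18354), and all 51 Rab symbols were found in RefSeq by gene id. The functions lmFit and eBayes of limma 3.58.1 (R 4.3.3, default prior, two-sided tests, with statmod 1.5.0 for robust fits) were run on all 33012 probes of all 6 samples with group as the only term, and tested on simulated data. Single ratios were compared by exact permutation.

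The members, compartments and lists of regulators were chosen with earlier results of these data known. Each Rab was put in 1 compartment although many act in several. Listed Rabs that no probe matched (Rab21, Rab22a, Rab25, Rab9, Rab26, Rab36, Rab41, Rab23, Rab40a and Rab42) were not analysed here. Values by sample were given for Rab genes called by limma, for the 3 genes of each compartment with the lowest p, for Rab11a and Rab20, and for genes whose probes differ in sign with an unadjusted p under 0.05 at one of them. Of each list of regulators, called genes and the 2 with the lowest p were named. Rab15, Rab10, Rab3d and Rab3a were added after their values were seen. The p-values measure only the spread between these replicates, and the number of arrays limits the precision. Alternatives were 2 other priors, the methods' t-test, an offset of 100, cyclic loess, only probes above the array median, the mean of all probes of a gene, a replicate block and leaving out each sample. The t-test adjusted over probes past the fold rule and the trend with a sample left out were added after seeing the data.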

Additional observations from a re-analysis of the deposited data

How the results depend on the processing

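The log2 fold change of each of 13 Rab genes (the 12 named by rule and Rab10) kept its sign under the alternatives run. Most of these could not change it. Other priors, the methods' t-test, the block and the restriction to brighter probes leave the log2 fold change as it is. Where groups do not overlap, leaving out 1 sample cannot turn the sign either, and of these 13 genes only Rab9b had overlap. The kept sign is thus no support beyond the separation of the groups. With the mean of all probes of a gene, however, Rab5b was at -0.26 in place of -0.84 (adjusted p = 0.477) and Rab11b at -0.04 in place of -0.42 (adjusted p = 0.926, both by limma), so neither has a settled direction. Counts of calls were not kept. For Rab genes called higher, limma's default prior gave 0, the intensity trend 6, the trend with a robust prior 6, only probes above the array median 6, log2(intensity + 100) 1 and the methods' t-test over probes past the fold rule 1 (at an adjusted p under 0.05, and 0 at the methods' 0.025). For those called lower the trend gave 3, the robust trend 2 and only probes above the median 2. The t-tests did not apply the methods' signal-to-noise and flag filters, and the fold rule picked probes by the contrast under test. Leaving out 1 sample gave 0 to 10 higher and 0 to 4 lower (default prior 0 and 0, with the trend 3 to 10 and 0 to 4). Over all probes, 168 were called higher and 146 lower, against 1279 and 1638 with the trend, 1207 and 1562 with the robust trend, 345 and 358 with the offset, 1207 and 1589 for probes above the median, and 0 and 0 with the methods' t-test or the replicate block. A sample left out gave 0 to 2595 higher and 0 to 2540 lower, with the default prior at 0. With the trend the counts were 2595 higher and 2540 lower without LPS replicate 1, 716 and 769 without LPS replicate 2, 727 and 798 without LPS replicate 3, and 604 and 795, 535 and 688, and 624 and 938 without 15-HETE + LPS replicates 1, 2 and 3. Exchange factors had 4 calls with either trend and 6 among probes above the median. GAPs had 3 with either trend, 1 with the offset and 4 among probes above the median. The 3 effector calls became 7 with either trend and above the median, and 0 with the t-test, the block or any sample left out (0 to 0).

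The replicate block paired samples by the number in the labels. Deviations of same-numbered samples correlated at -0.024, 0.0035 and 0.0237 across probes, so the numbers were not taken as pairs, and the block called 0 probes.

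The early endosome median of 0.13 ran between 0.0774 and 0.193 with a sample left out. The recycling median of 0.14 was -0.047 among probes above the median and ran between -0.0675 and 0.268 with a sample left out, below 0 without 15-HETE + LPS replicate 2 (-0.0675) or LPS replicate 3 (-0.0111). The late endosome median of -0.07 was 0.0544 among probes above the median and ran between -0.127 and 0.00314 with a sample left out, above 0 without 15-HETE + LPS replicate 2. Neither the recycling nor the late endosome median has a stable sign. The secretory median of 0.15 was 0.18 with cyclic loess, 0.22 above the median and 0.0722 to 0.221 with a sample left out. For other Rab genes the median of 0.17 was 0.308 above the median and 0.0804 to 0.266 with a sample left out. Beyond what these values show, the cause was not tested. Of the 14 Rab genes at or below the array median, none was called with the default prior or the trend, and the number of arrays limits what could be seen at such dim probes.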
